A study of Homo sapiens with 15 samples.

Results

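Gene expression of RPMI8226 cells cultured in direct contact with HS5 stromal cells was compared with that of RPMI8226 cells held above HS5 cells in a transwell insert. The genes were chosen by a rule: a mean RPKM (read pairs on a gene, scaled to its length and to the depth of the library) of at least 1 over the 6 RPMI8226 libraries, with pseudogenes and mitochondrial tRNA genes set aside. Of the 20468 genes in the deposited table, 10319 reached this level and were tested, 219 of them were set aside, and 10100 were kept. The comparison rested on 4 of the 15 libraries of the series, 2 from each side of the membrane.

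RPMI8226 and MM.1S are established human multiple myeloma (MM) lines, and HS5, an established human bone marrow stromal line, served as the bone marrow stromal cells (BMSCs). MM cells were grown alone (MONO), in the upper insert of a transwell plate with HS5 cells at the bottom (TSW), or in the lower chamber on the HS5 layer (CO), with 2 libraries per condition for RPMI8226 and 3 for MM.1S. MM cells were added both above and below the membrane of the transwell plates, so TSW and CO libraries may come from the same wells. TSW cells received soluble factors through the membrane, CO cells received soluble factors and contact, and no drug was given in any condition. Before RNA isolation, live cells with CD38 and without CD90 on their surface were sorted, a gate that keeps MM cells and leaves out stromal cells that carry CD90. The comparison of CO with TSW asks which genes differed when contact with BMSCs was added to their soluble factors. The depth, recovered from the spacing of the deposited values, was 12479855 and 14806319 read pairs in MONO, 18538305 and 17929481 in TSW, and 16316717 and 18790792 in CO.

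In the bone marrow, stromal cells lay down collagens and fibronectin, cut matrix with metalloproteinases, and release IL6 and chemokines that bind receptors on plasma cells. Contact adds binding through integrins and other adhesion receptors, which signal to the cytoskeleton and to transcription factors. Dividing MM cells load the MCM helicase onto replication origins in G1, and many genes of this machinery carry E2F sites in their promoters.

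The libraries carried the transcripts of plasma cells. Of 11 myeloma markers, 9 had at least 1 RPKM in each of the 6 libraries, and SLAMF7 and FCRL5 stayed near 0. The markers summed to 4460 and 4270 RPKM in TSW and to 4540 and 4460 RPKM in CO, and JCHAIN, which links immunoglobulin chains into polymers, was the most abundant. Of the transcripts of the sort gate, CD38 was high and THY1 was near 0. CD38 had 49.6 and 42.0 RPKM in TSW and 52.2 and 53.7 RPKM in CO, and THY1, the gene of CD90, had 0 and 0 RPKM in TSW and 0.0767 and 0.111 RPKM in CO. Both genes were higher in CO with no overlap between the groups, and the difference of CD38 was not called (log2 0.21, SE 0.09, limma adjusted p 0.0941). THY1 in MM.1S had 0.0293, 0 and 0 RPKM in TSW and 0.570, 0.489 and 0.453 RPKM in CO. Of the markers of other cell types, KDR (endothelium), CD3D and CD2 (T cells) were at 0 in all 6 RPMI8226 libraries. CD68, which is also a lysosomal gene outside macrophages, had 81.5 and 91.0 RPKM in TSW and 106 and 95.5 RPKM in CO. It was higher in CO with no overlap and was not called (log2 0.22, SE 0.08, limma adjusted p 0.0632). CD14 was at 0 in both CO libraries. Other members were above 0, with 0.785 and 0.697 RPKM in TSW and 0.774 and 0.709 RPKM in CO for PECAM1, 0.0357 and 0.258 RPKM in TSW and 0.284 and 0.106 RPKM in CO for CD3E, and means of 1.88 RPKM in TSW and 2.52 RPKM in CO for CSF1R, and the groups overlapped in all 3. CDH5 (endothelium) had 0.0130 and 0.0403 RPKM in TSW and 0.0443 and 0.141 RPKM in CO, higher in CO with no overlap, and VWF had 0.00611 and 0.0126 RPKM in TSW and 0 and 0 RPKM in CO. Both were under the expression limit and were not tested.

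The TSW libraries stood apart in how reads fell on genes with copies elsewhere in the genome. The 198 tested pseudogenes summed to 4900 and 5170 RPKM in TSW, against 8860 and 8350 RPKM in CO and 8750 and 8620 RPKM in MONO. TSW was thus below both other conditions with no overlap. The 21 mitochondrial tRNA genes summed to 2170 and 1830 RPKM in TSW, 3160 and 3210 RPKM in CO, and 2010 and 2160 RPKM in MONO, so that for these genes CO stood apart. Among the 219 genes set aside, 23 were called higher and 38 lower, which is 27.9%, against 3.78% of the kept genes. In MM.1S the same pseudogenes summed to 6280, 5900 and 5400 RPKM in TSW and to 4870, 5530 and 4930 RPKM in CO, and these groups overlapped. MONO of MM.1S had 7940, 5120 and 6680 RPKM, so its replicate 2 was low as well, and a low sum was not particular to TSW of RPMI8226.

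Comparing CO with TSW in RPMI8226 called 173 kept genes higher in CO and 209 lower, where a call required a limma adjusted p below 0.05 together with a change of more than 1.5-fold. Adjusted p-values come from limma on log2(RPKM + 1), with Benjamini-Hochberg adjustment over the 10319 tested genes, and log2 differences on this scale understate the change of genes with low RPKM. Over all tested genes, set-aside ones included, 1.90% were called higher and 2.39% lower. CO and TSW values of each called gene did not overlap. The median log2 difference over the kept genes was -0.04, and 2754 kept genes had an adjusted p under 0.05 with no fold limit, 1002 higher and 1752 lower. Of the kept genes, 15.8% were higher and 24.4% lower at an unadjusted p under 0.05, the background for the counts at this level in the gene lists, and voom called 298 kept genes higher and 308 lower. P-values measure the spread between these libraries, which may be technical, since nothing states that libraries came from separate cultures. The split between directions depended on the scaling: 45.3% of called genes were higher as deposited, 60.8% with median-of-ratios scaling (216 higher, 139 lower), 63.3% with quantile normalization (236 and 137), and 60.2% after a loess correction for GC content and length (124 and 82). The count of higher genes depended on the TSW libraries, with 357 without TSW replicate 1 and 115 without TSW replicate 2.

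**Figure D1:**
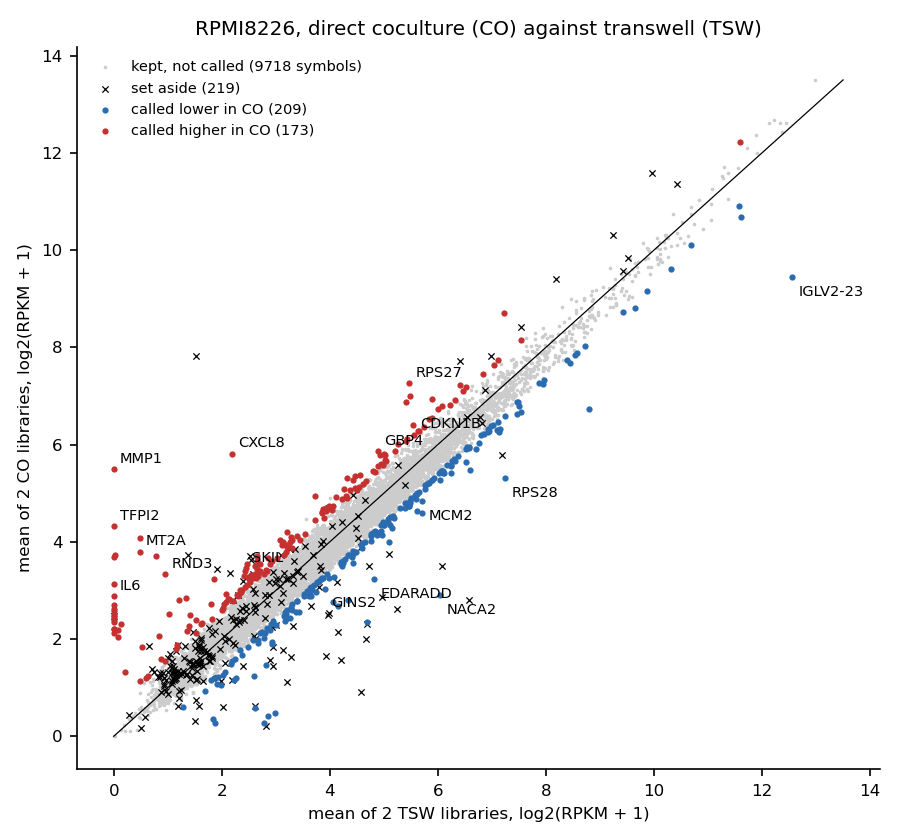
Mean expression of each tested gene in the 2 TSW libraries (x axis) and the 2 CO libraries (y axis) of RPMI8226, both as log2(RPKM + 1), where the line marks equal expression. Red points are the 173 kept genes called higher and blue points the 209 called lower in CO, crosses are the 219 pseudogenes and mitochondrial tRNA genes set aside, and a column of red points at 0 in TSW holds MMP1, TFPI2 and IL6.

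Short and GC-rich genes tended to lie below 0. When the kept genes were divided into 5 equal groups by transcript length, the median log2 difference went from -0.20 in the shortest group (median 1438 bases) to 0.06 in the longest (median 7966 bases). By GC content it went from 0.19 in the group with the lowest GC (median 38.0%) to -0.15 in that with the highest (median 61.2%). Genes called lower had a median length of 1271 bases and a median GC content of 55.5%, genes called higher had 3371 bases and 39.2%, and all kept genes had 3664 bases and 47.6%. The shortest group held 153 of the 209 lower genes. MM.1S had the same order of medians with a smaller range, from -0.08 to 0.04 by length and from 0.07 to -0.07 by GC content. How much of the differences in RPMI8226 goes with length and GC content was not tested beyond the loess correction, under which 97 of the 173 higher genes and 67 of the 209 lower genes were still called.

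**Figure D2:**
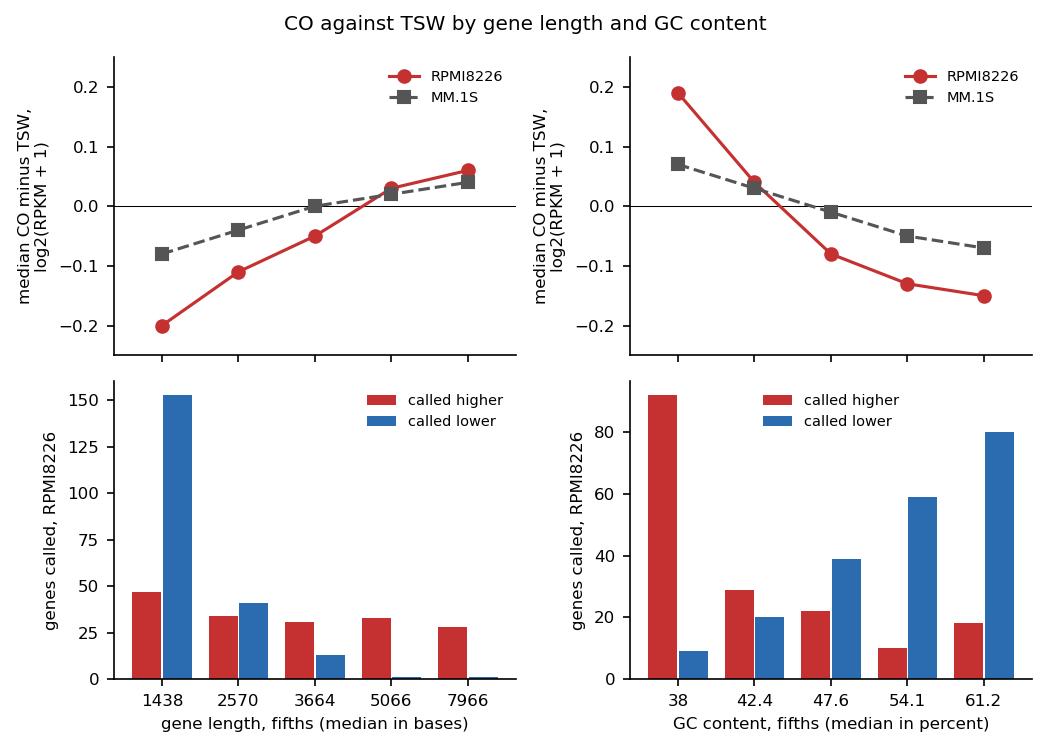
Kept genes in 5 equal groups by transcript length (left) and GC content (right), with the median of each group on the x axis. The upper panels show the median log2 difference of CO minus TSW in RPMI8226 (red) and MM.1S (grey), and the lower panels count the RPMI8226 genes called higher and lower, with 153 lower genes in the shortest group.

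Apart from FN1, transcripts of the stromal markers summed to a low level in the TSW libraries and to a higher one in the CO libraries. Of 20 stromal markers, 19 were above 0 in each CO library, against 10 and 9 in the TSW libraries, and 19 were higher in both CO libraries than in both TSW libraries. Of the 10100 kept genes, 4364 had a log2 difference above 0, a looser measure on tested genes, and 9 of the 20 markers were tested. The share of kept genes higher in CO with no overlap is not given. The markers summed to 1680 and 1970 RPKM in TSW and to 2090 and 2290 RPKM in CO. FN1, the gene of fibronectin, was the most abundant of them and made up nearly all of these sums. FN1 is expressed by RPMI8226 itself, with 3990 and 4310 RPKM in MONO, and it had 1680 and 1960 RPKM in TSW and 2010 and 2170 RPKM in CO (log2 0.20, SE 0.09, limma adjusted p 0.115). Without FN1, the other 19 markers summed to 4.35 and 4.15 RPKM in MONO, 4.19 and 4.25 RPKM in TSW, and 85.0 and 124 RPKM in CO. MONO and TSW were thus at 1 level, and both CO libraries lay far above it, with replicate 2 above replicate 1. Fewer cells of a type and less RNA per cell cannot be told apart in such libraries. Of the 20 markers, 3 had a mean of at least 1 RPKM in MONO, and COL6A3 was at 0 in all 6 libraries, although COL6A1 and COL6A2 were not. In MM.1S the 19 markers without FN1 summed to 4.15, 4.90 and 4.80 RPKM in TSW and to 132, 143 and 120 RPKM in CO.

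Among these markers, MMP1, an interstitial collagenase (Entrez 4312), had the highest level in CO after FN1. It had 0 and 0 RPKM in MONO, 0 and 0 RPKM in TSW, and 35.1 and 53.2 RPKM in CO, which is at least 543-fold higher than 3 read pairs in a TSW library (log2 5.47, SE 0.16, limma adjusted p 4.30e-08). MMP1 was thus seen in both CO libraries and in no other library of the line. It passed the expression limit through CO alone and had to differ, so its adjusted p is a description. Such lower bounds, computed against 3 read pairs per library, cover counting error only. TFPI2, an inhibitor of serine proteases in the matrix, had 0 and 0 RPKM in TSW and 15.7 and 22.4 RPKM in CO, at least 278-fold higher. MMP3, or stromelysin, had 0.0295 and 0 RPKM in TSW and 10.3 and 14.2 RPKM in CO, at least 134-fold higher. COL1A2, a chain of type I collagen, had 0 and 0 RPKM in TSW and 4.05 and 5.85 RPKM in CO, at least 160-fold higher. The CO values of each of these genes lay above all TSW and MONO values. COL3A1, chosen after its values were seen, stayed under the expression limit with 2.69 and 2.86 RPKM in CO and 0 and 0 RPKM in TSW. COL1A1 had 0.940 and 1.41 RPKM in CO, below COL1A2 in the same libraries.

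Of the 173 higher genes, 29 had a mean under 2 RPKM in both MONO and TSW, and their CO values ranged from 1.18 to 35.1 RPKM in replicate 1 and from 1.41 to 53.2 RPKM in replicate 2. In TSW, 14 of the 29 were at 0 in both libraries and 16 had 3 read pairs or fewer. Genes at 0 in MONO and TSW, such as IL6, passed the expression limit through CO alone. They had to differ, so their adjusted p-values are a description. For 23 of the 29 the value in CO replicate 2 was above that in replicate 1, the order that the summed stromal markers had. Of the other 144 higher genes 42 had this order, and of the 209 lower genes 159 had it. The share of all kept genes with this order is not given, so these counts are a description. Of the 29 genes, RND3, HSPA6, IER3, CD99, NCF1, ANXA1 and WASHC2C are among those outside the stromal lists (HSPA6, NCF1, ANXA1 and WASHC2C were named after their values were seen). SERPINB2, an inhibitor of plasminogen activators, had 0 and 0 RPKM in TSW and 7.87 and 16.0 RPKM in CO, at least 154-fold higher. MMP2, a gelatinase, had 0 and 0 RPKM in TSW and 4.44 and 4.68 RPKM in CO, at least 112-fold higher. IL6, the growth factor of plasma cells, had 0 and 0 RPKM in MONO, 0 and 0 RPKM in TSW, and 6.44 and 6.25 RPKM in CO, at least 150-fold higher (log2 2.88, SE 0.10, limma adjusted p 9.69e-08). IL6 transcripts were thus found in the CO libraries alone, and their level was nearly equal in the pair. IL1B had 0.336 and 0.474 RPKM in TSW and 11.3 and 20.6 RPKM in CO, and its CO mean was 39.3 times its TSW mean. CSF3, the gene of the granulocyte growth factor G-CSF, had 0 and 0 RPKM in TSW and 5.48 and 10.0 RPKM in CO, at least 81.9-fold higher. The chemokine genes CCL2 (0 and 0 RPKM in TSW, 4.25 and 6.68 RPKM in CO) and CXCL2 (0 and 0 RPKM in TSW, 4.68 and 5.56 RPKM in CO) were at least 24.5-fold and at least 36.9-fold higher. SERPINB2, MMP2, IL6, IL1B, CSF3, CCL2 and CXCL2 all had both CO values above every MONO and TSW value. The authors noted a low level of HS5 cells among the cells sorted from the lower chamber. The part of HS5 RNA in the values of these 29 genes was not tested, and the series holds no library of HS5 cells alone. With these genes left out, 144 higher genes remained.

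Genes of the same kind chosen after their values were seen had the same pattern. PTGS2, the inducible cyclooxygenase, had 0 and 0 RPKM in TSW and 4.24 and 2.94 RPKM in CO, and GREM1, a secreted antagonist of BMPs, had 0 and 0 RPKM in TSW and 3.10 and 5.07 RPKM in CO. MMP14, a membrane-bound protease that activates MMP2, had 0.120 and 0.0776 RPKM in TSW and 3.26 and 4.62 RPKM in CO. CXCL3 had 3.28 and 5.88 RPKM and CCL7 had 3.99 and 4.51 RPKM in CO, and both were at 0 in all MONO and TSW libraries. IL1A had 0.0737 and 0.0381 RPKM in TSW and 2.34 and 3.91 RPKM in CO. Some of the 29 genes had values above 0 in all conditions. RND3, a protein that loosens actin stress fibres, had 2.11 and 1.80 RPKM in MONO, 1.23 and 0.636 RPKM in TSW, and 8.32 and 9.93 RPKM in CO (log2 2.40, SE 0.15, limma adjusted p 5.16e-06). ANXA1, a phospholipid-binding protein, had 0.133 and 0.0750 RPKM in MONO, 1.98 and 1.77 RPKM in TSW, and 3.85 and 4.58 RPKM in CO. RND3 in TSW was below MONO, whereas ANXA1 in TSW lay between MONO and CO. HSPA6, an inducible chaperone, had 0.595 and 1.44 RPKM in TSW and 4.76 and 4.69 RPKM in CO.

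**Figure D3:**
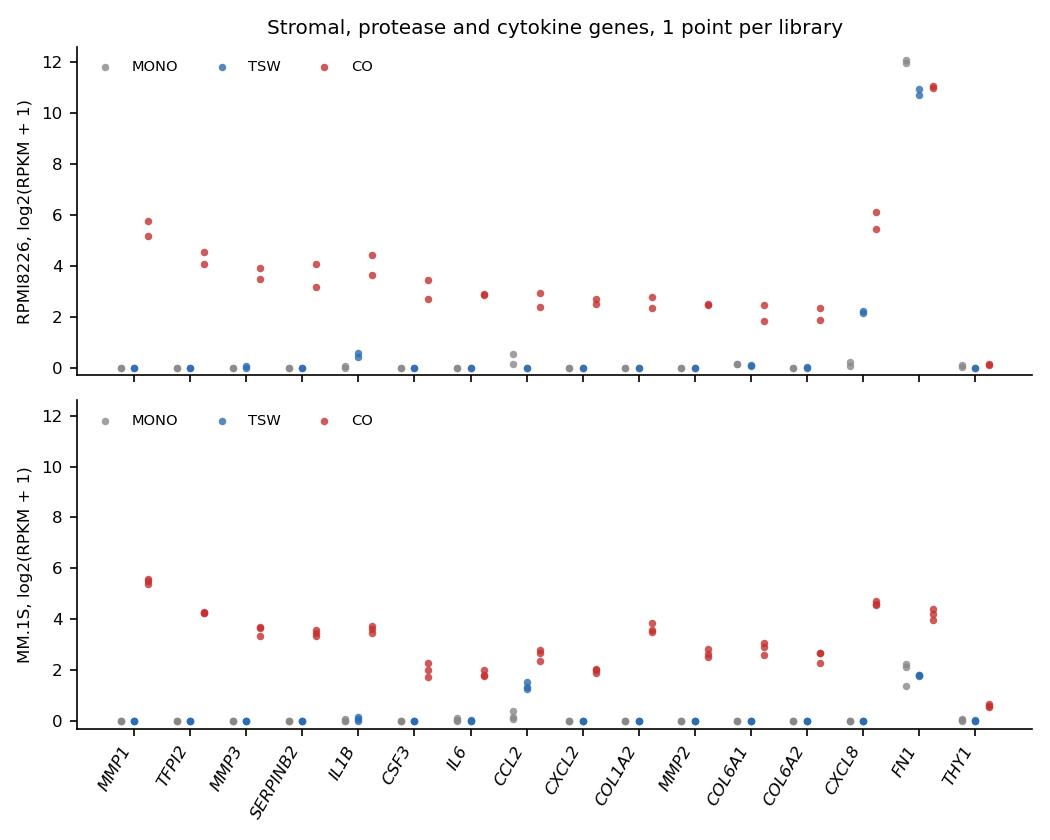
Expression of 16 stromal, protease and cytokine genes as log2(RPKM + 1), with 1 point per library, in RPMI8226 (upper panel, 2 libraries per condition) and MM.1S (lower panel, 3 per condition). Most genes lie at or near 0 in MONO (grey) and TSW (blue) and above 0 in CO (red), while FN1 is high in all RPMI8226 libraries and THY1 stays near 0.

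The stromal lists gave the same picture in numbers. Of 27 secreted genes, 15 were tested, 10 were called higher and 0 lower, with a median log2 difference of 2.48, or 2.40 with the genes at 3 read pairs or fewer in TSW at their lower bounds, against -0.04 over all kept genes. The median was 0.24 for members with a mean RPKM of at least 5 and 7.22 with voom. Voom called 10 of these genes higher and 0 lower, and 0 were lower at an unadjusted p under 0.05. Of all kept genes, limma called 1.71% higher and 2.07% lower. Genes that passed the expression limit through CO alone had to differ, so the counts are a description. The 5 members that were not called included genes that RPMI8226 expresses in monoculture. CXCL12, the chemokine that retains plasma cells in marrow, had 32.7 and 34.1 RPKM in TSW and 36.4 and 38.8 RPKM in CO, with 18.6 and 19.3 RPKM in MONO (log2 0.17, SE 0.07, limma adjusted p 0.115). TIMP1, an inhibitor of metalloproteinases, had 35.9 and 41.8 RPKM in TSW and 41.7 and 44.1 RPKM in CO, and these groups overlapped. Of 28 matrix and contractile genes, 7 were tested and 3 were called higher, with a median of 0.56. CAV1, a coat protein of membrane caveolae, had 17.4 and 17.7 RPKM in TSW and 20.5 and 19.5 RPKM in CO, and was not called. LOX, which crosslinks collagen, had 1.10 and 0.857 RPKM in TSW and 1.73 and 2.13 RPKM in CO and was not called (log2 0.56), although it was called without CO replicate 1 (0.66) and without TSW replicate 1 (0.65).

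The other 144 higher genes had at least 2 RPKM in MONO or TSW, with log2 differences from 0.59 to 3.60 and a median of 0.69. CXCL8, the gene of the neutrophil chemoattractant IL8 (Entrez 3576), had the largest log2 difference in RPKM + 1. It had 0.0470 and 0.158 RPKM in MONO, 3.42 and 3.66 RPKM in TSW, and 42.7 and 67.9 RPKM in CO, and its CO mean was 15.6 times its TSW mean (log2 3.60, SE 0.17, limma adjusted p 6.27e-07). CXCL8 was low in MONO, higher in TSW and highest in CO, with no overlap. MT2A, a metallothionein that binds zinc, had 3.06 and 3.06 RPKM in MONO, 0.386 and 0.399 RPKM in TSW, and 10.5 and 15.4 RPKM in CO, at least 32.4-fold higher than TSW, a larger ratio than that of CXCL8 (log2 3.30). TSW was the lowest condition for MT2A, and metallothionein genes have close copies, so its placement is uncertain. MME, the surface peptidase CD10, had 0.712 and 0.624 RPKM in MONO, 2.83 and 2.44 RPKM in TSW, and 7.51 and 9.25 RPKM in CO (log2 1.36, SE 0.12, limma adjusted p 5.78e-05). Its conditions were ordered MONO, TSW and CO with no overlap. CXCL8 is also on the stromal secreted list, and the part of HS5 RNA in CXCL8, MT2A and MME was not tested.

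Of the 144 higher genes with at least 2 RPKM in MONO or TSW, 56 had both TSW values above MONO and both CO values above TSW, and 61 had both TSW values below MONO. Both TSW values were also below MONO in 112 of the 209 lower genes. The share of all kept genes with either order is not given, so these counts are a description. The genes that follow belong to the 56, and most were picked after this order was seen. These values come from comparisons that share the TSW libraries and are set side by side. GBP4, an interferon-induced GTPase chosen after its values were seen (Entrez 115361), had 2.24 and 2.36 RPKM in MONO, 29.2 and 28.2 RPKM in TSW, and 57.4 and 56.7 RPKM in CO (log2 0.97, SE 0.07, limma adjusted p 2.59e-05). IFIT2, an interferon-induced RNA-binding protein, had 0.436 and 0.502 RPKM in MONO, 5.19 and 5.12 RPKM in TSW, and 10.3 and 10.3 RPKM in CO (log2 0.88, SE 0.09, limma adjusted p 0.000220). In both genes the pairs lay close together and the conditions were far apart. CFI, a protease that limits complement activation and was chosen after its values were seen, had 0 and 0 RPKM in MONO, 22.0 and 20.2 RPKM in TSW, and 40.9 and 38.4 RPKM in CO. BMF, a proapoptotic protein with a BH3 domain, had 4.62 and 4.29 RPKM in MONO, 12.9 and 14.1 RPKM in TSW, and 22.7 and 23.2 RPKM in CO (log2 0.73, SE 0.08, limma adjusted p 0.000396). CFI and BMF had the order of GBP4, with MONO lowest and CO highest. UGCG, the enzyme that makes glucosylceramide (32.7 and 29.4 RPKM in TSW, 54.4 and 55.1 RPKM in CO), RUNX2, a transcription factor of bone (6.64 and 6.51 RPKM in TSW, 11.5 and 10.6 RPKM in CO), and RGS1, a brake on chemokine receptor signalling (20.6 and 24.8 RPKM in TSW, 37.7 and 43.0 RPKM in CO), were chosen after their values were seen and called higher. Each of the genes in these sentences was called with every CO or TSW library left out in turn.

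Further called genes came from lists with few calls in number, where 1.71% of all kept genes were called higher. Of 16 tested p53 targets 1 was called higher (median 0.08), and of 14 tested genes of the BCL2 family 1 was called higher, BMF (median -0.01), with 0 called lower in either list. The p53 targets had 6 higher and 2 lower at an unadjusted p under 0.05 and the BCL2 family 4 and 2, and voom called 2 and 1 higher and 0 lower. The unadjusted shares higher were 37.5% and 28.6%, against 15.8% of all kept genes. Those lower were 12.5% and 14.3%, against 24.4%. CDKN1B, the CDK inhibitor p27, had 20.4 and 18.4 RPKM in MONO, 48.4 and 43.8 RPKM in TSW, and 77.3 and 68.2 RPKM in CO (log2 0.65, SE 0.09, limma adjusted p 0.000935). It was not called without CO replicate 1 (0.56) or without TSW replicate 2 (0.58). TP53INP1, a p53 target that promotes cell death and autophagy, had 26.6 and 25.1 RPKM in MONO, 197 and 173 RPKM in TSW, and 288 and 283 RPKM in CO, and was not called without TSW replicate 2 (0.53) or after the loess correction (0.44). BIRC3, an NF-kappaB target that restrains cell death, had 46.5 and 37.0 RPKM in TSW and 70.6 and 62.3 RPKM in CO, and was not called without CO replicate 1 (0.58), without TSW replicate 2 (0.50) or after the loess correction (0.37). For all 3 genes the MONO values were lowest and the CO values highest. SKIL, a repressor of SMAD signalling that TGF-beta induces (Entrez 6498), followed another order, with 15.3 and 14.0 RPKM in MONO, 4.35 and 4.57 RPKM in TSW, and 9.61 and 10.4 RPKM in CO (log2 1.01, SE 0.09, limma adjusted p 7.08e-05). Its TSW values were the lowest, and CO lay between TSW and MONO. IER3, an early response gene, had 0.905 and 1.25 RPKM in MONO, 1.57 and 1.48 RPKM in TSW, and 5.63 and 6.82 RPKM in CO (log2 1.51, SE 0.12, limma adjusted p 3.47e-05). CD86, a costimulatory ligand, had 4.67 and 5.74 RPKM in TSW and 7.76 and 9.46 RPKM in CO, and was not called without CO replicate 2 (0.50) or without TSW replicate 1 (0.51).

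Most replication genes had lower values in CO, mostly by less than the fold limit. Of 53 genes of the replication fork and origin, all 53 were tested, 32 were lower and 0 higher at a limma adjusted p under 0.05, against 1752 lower and 1002 higher of the 10100 kept genes, and 8 of the 32 also passed the fold limit and were called. Of the 53, 48 had a log2 difference below 0, and the median was -0.35 against -0.04 over all kept genes. Of the 10100 kept genes, 5735 had a log2 difference below 0, and 2.07% were called lower. At an unadjusted p under 0.05, 40 were lower and 0 higher, and voom called 12 lower and 0 higher. MCM2, a subunit of the replicative helicase (Entrez 4171), had 123 and 124 RPKM in MONO, 46.6 and 55.8 RPKM in TSW, and 27.7 and 27.4 RPKM in CO (log2 -0.87, SE 0.09, limma adjusted p 0.000153). GINS2, a subunit of the GINS complex that joins the helicase (Entrez 51659), had 51.3 and 52.1 RPKM in MONO, 13.7 and 14.4 RPKM in TSW, and 6.28 and 8.16 RPKM in CO (log2 -0.88, SE 0.10, limma adjusted p 0.000449). CDC6, a loader of MCM proteins, had 57.4 and 54.2 RPKM in MONO, 31.3 and 31.0 RPKM in TSW, and 20.0 and 18.6 RPKM in CO (log2 -0.66, SE 0.07, limma adjusted p 0.000287). In these 3 genes the conditions were ordered MONO, TSW and CO from high to low with no overlap, and the call was made with each library left out and after the loess correction. CDT1, which loads MCM proteins together with CDC6, had 16.9 and 20.0 RPKM in TSW and 11.5 and 11.7 RPKM in CO, and was not called without TSW replicate 2 (-0.50) or after the loess correction (-0.46). RNASEH2A, a subunit of an enzyme that removes RNA from DNA, had 38.3 and 43.2 RPKM in TSW and 24.2 and 25.3 RPKM in CO, and was called with each library left out but not after the loess correction (-0.49). MCM5 was not called without CO replicate 1 (-0.55) or without TSW replicate 2 (-0.50), RFC4 without CO replicate 2 (-0.58) or without TSW replicate 1 (-0.53), and FEN1 without CO replicate 2 (-0.58) or without TSW replicate 2 (-0.55). The loess correction also ended the calls of MCM5 (-0.49), RFC4 (-0.53) and FEN1 (-0.50). The list had a median length of 3616 bases and a median GC content of 45.9%, close to all kept genes, and its median after the loess correction was -0.33, with 4 called lower, of which 3 (MCM2, GINS2 and CDC6) were among the 8. PCNA, the sliding clamp of the polymerases, had 124 and 126 RPKM in TSW and 91.7 and 90.0 RPKM in CO and missed the fold limit (log2 -0.46, SE 0.07, limma adjusted p 0.00114).

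Promoters are shown for 4 of the lower replication genes because these genes moved together and their promoters hold a match, and the capitals mark matches to the E2F words TTTGGCGC, TTTCCCGC and TTTCGCGC or their reverse complements. The windows run from 250 bases before to 50 bases after the gene start in the RefSeq annotation of GRCh38.p14, written 5′ to 3′ on the strand of the gene: MCM2 at chr3:127598161-127598460 (plus), GINS2 at chr16:85688905-85689204 (minus), CDC6 at chr17:40287629-40287928 (plus) and CDT1 at chr16:88803539-88803838 (plus). Of 27305 promoters of this length, 2.79% held such a word, as did 5.04% of the 8381 promoters found for kept genes, 17 of 173 promoters found for lower genes (9.83%), 20 of 46 found for the replication list (43.5%) and 0 of 128 found for higher genes. A match is a description of letters and not of binding.
MCM2: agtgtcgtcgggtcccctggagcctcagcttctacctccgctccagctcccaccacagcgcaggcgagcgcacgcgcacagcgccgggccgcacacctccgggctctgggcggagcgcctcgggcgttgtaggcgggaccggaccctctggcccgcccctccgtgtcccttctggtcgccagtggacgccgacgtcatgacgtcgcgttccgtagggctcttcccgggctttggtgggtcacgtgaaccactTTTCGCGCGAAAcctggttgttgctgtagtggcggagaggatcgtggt
GINS2: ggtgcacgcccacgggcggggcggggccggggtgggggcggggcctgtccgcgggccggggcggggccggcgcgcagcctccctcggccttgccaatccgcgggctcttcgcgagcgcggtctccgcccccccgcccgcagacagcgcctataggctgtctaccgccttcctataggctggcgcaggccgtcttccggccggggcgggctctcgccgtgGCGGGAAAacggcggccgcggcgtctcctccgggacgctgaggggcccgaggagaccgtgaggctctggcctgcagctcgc
CDC6: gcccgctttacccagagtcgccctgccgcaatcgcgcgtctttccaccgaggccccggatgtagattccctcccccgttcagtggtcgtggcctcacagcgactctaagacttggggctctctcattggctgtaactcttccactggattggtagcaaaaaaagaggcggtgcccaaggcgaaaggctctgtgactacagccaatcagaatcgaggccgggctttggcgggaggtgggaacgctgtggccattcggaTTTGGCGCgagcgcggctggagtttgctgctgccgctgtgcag
CDT1: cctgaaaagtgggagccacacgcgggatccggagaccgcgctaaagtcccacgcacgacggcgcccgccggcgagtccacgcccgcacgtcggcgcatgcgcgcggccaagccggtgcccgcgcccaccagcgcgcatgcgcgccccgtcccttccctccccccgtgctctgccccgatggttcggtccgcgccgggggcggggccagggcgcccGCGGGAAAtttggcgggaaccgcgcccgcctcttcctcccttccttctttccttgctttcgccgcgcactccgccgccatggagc

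The 2 matches in MCM2 overlap and start 3 and 7 bases after the gene start, and that of CDC6 starts 8 bases after it. The matches in GINS2 and CDT1 start 31 and 35 bases before the gene start. Among 24 tested cyclins, CDKs and their inhibitors, CDK4 was called lower and CDKN1B higher, with a median of -0.01 and 12 above and 12 below 0. CDK4, the kinase that starts the passage from G1 to S phase, had 118 and 120 RPKM in MONO, 72.9 and 75.8 RPKM in TSW, and 46.3 and 47.9 RPKM in CO (log2 -0.65, SE 0.06, limma adjusted p 0.000161). It was called with each library left out, but not with quantile normalization (-0.57) or after the loess correction (-0.51). Of 23 genes of nucleotide synthesis, all tested, 3 were lower and 0 higher, with a median of -0.40, 21 of them below 0, 17 lower against 1 higher at a limma adjusted p under 0.05, and 19 against 1 at an unadjusted p under 0.05. Voom called 6 of them lower and 0 higher. Of all kept genes, limma called 2.07% lower and 1.71% higher. TYMS, the thymidylate synthase, had 23.8 and 28.8 RPKM in TSW and 17.7 and 16.2 RPKM in CO, with 83.7 and 88.6 RPKM in MONO. TYMS was not called without CO replicate 2 (-0.54), without TSW replicate 2 (-0.47) or after the loess correction (-0.47). TK1, the thymidine kinase, was not called without TSW replicate 2 (-0.47) or after the loess correction (-0.38), and DTYMK, the thymidylate kinase, not without CO replicate 1 (-0.58), without TSW replicate 2 (-0.57) or after the loess correction (-0.38). TK1 had 178 and 186 RPKM in MONO, 213 and 254 RPKM in TSW, and 153 and 153 RPKM in CO, so that here TSW was the highest condition. Of 33 tested genes of G2/M and mitosis, limma called 0 in either direction, with a median of -0.15, and at an unadjusted p under 0.05 there were 14 lower and 1 higher, and voom called 0. TOP2A, which untangles DNA before mitosis, had 102 and 93.6 RPKM in TSW and 114 and 101 RPKM in CO, and these groups overlapped. MYC had 152 and 166 RPKM in TSW and 131 and 133 RPKM in CO and missed the fold limit (log2 -0.26, SE 0.07, limma adjusted p 0.0161).

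A minority of a ribosome biogenesis list, which also holds the polyamine enzymes SRM and ODC1, was called, each gene lower. This share was above the 2.07% of all kept genes called lower. All 35 genes of ribosome biogenesis were tested, 6 were called lower and 0 higher, 32 were lower and 1 higher at a limma adjusted p under 0.05, 34 had a log2 difference below 0, and the median was -0.46. At an unadjusted p under 0.05, 32 were lower and 1 was higher, and voom called 7 lower and 0 higher. NOP56, a core protein of box C/D particles that guide rRNA methylation, had 154 and 146 RPKM in MONO, 62.7 and 65.8 RPKM in TSW, and 40.6 and 42.6 RPKM in CO (log2 -0.62, SE 0.07, limma adjusted p 0.000300). SRM, the spermidine synthase, had 296 and 308 RPKM in MONO, 114 and 126 RPKM in TSW, and 76.1 and 75.2 RPKM in CO (log2 -0.65, SE 0.07, limma adjusted p 0.000262). PPAN, a protein of the large subunit's assembly, had 2.65 and 2.87 RPKM in TSW and 0.887 and 1.32 RPKM in CO, and its reads overlap a readthrough gene with a neighbour, so its value is uncertain. In all 3 genes MONO was highest and CO lowest. Calls depended on single libraries for NOP56 (-0.58 without CO replicate 1 and without TSW replicate 2), NOP16 (-0.56 for the same omissions), BYSL (-0.48 and -0.56), LYAR (-0.46 without CO replicate 2) and SRM (-0.58 without TSW replicate 2). The median of the list after the loess correction was -0.40, with 3 called lower, of which 2 (PPAN and LYAR) were among the 6, its median length was 2411 bases and its median GC content 47.8%. NPM1, an abundant nucleolar chaperone, was an exception, with 163 and 146 RPKM in TSW and 180 and 181 RPKM in CO (log2 0.23, SE 0.07, limma adjusted p 0.0440).

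**Figure D4:**
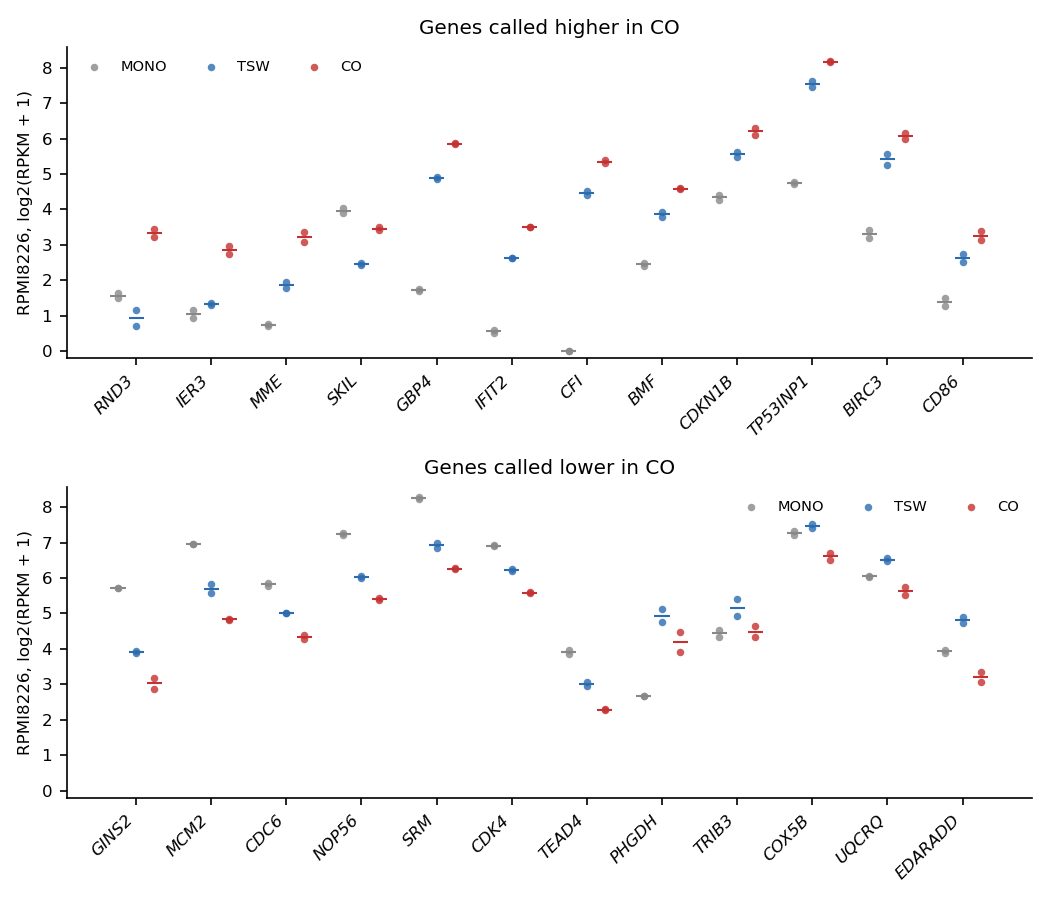
Expression of 12 genes called higher (upper panel) and 12 called lower (lower panel) in CO, as log2(RPKM + 1), in the 6 RPMI8226 libraries, with points for libraries and bars for means of 2. CO (red) lies above TSW (blue) in the upper panel and below it in the lower panel, while MONO (grey) lies above TSW for some genes, such as SKIL, MCM2 and CDK4, and below it for others, such as CFI, GBP4 and PHGDH.

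Most nuclear genes of oxidative phosphorylation had lower values in CO, although a minority was called. Of the 13 mRNAs encoded in mitochondrial DNA, 8 were higher at a limma adjusted p under 0.05. Of 67 nuclear genes, all tested, 12 were called lower and 1 higher, 57 were lower and 1 higher at a limma adjusted p under 0.05, 61 had a log2 difference below 0, and the median was -0.43. Of the 10100 kept genes, 2.07% were called lower, a smaller share, and 1.71% higher. At a limma adjusted p under 0.05, 1752 of them were lower and 1002 higher, and 5735 had a log2 difference below 0. UQCRQ, a subunit of complex III (Entrez 27089), had 65.4 and 64.6 RPKM in MONO, 88.0 and 93.2 RPKM in TSW, and 44.7 and 53.2 RPKM in CO (log2 -0.88, SE 0.09, limma adjusted p 0.000142). COX5B, a subunit of cytochrome c oxidase with pseudogene copies, had 148 and 160 RPKM in MONO, 169 and 183 RPKM in TSW, and 90.7 and 104 RPKM in CO (log2 -0.85, SE 0.08, limma adjusted p 0.000140). ATP5F1D, a subunit of ATP synthase, had 102 and 111 RPKM in MONO, 97.1 and 108 RPKM in TSW, and 56.4 and 61.5 RPKM in CO (log2 -0.79, SE 0.08, limma adjusted p 0.000176). For these genes TSW was near or above MONO, and both CO values were below all others. UQCRQ, COX5B, ATP5F1D, ATP5ME and COX8A were called with each library left out, and the calls of NDUFB2, NDUFS3, NDUFS6, NDUFS7, NDUFS8, CYC1 and COX6A1 were lost without at least 1 library, most often TSW replicate 2, with values between -0.58 and -0.49. The members are short, with a median length of 975 bases and a median GC content of 47.5%, and after the loess correction the median was -0.29 with 6 called lower, of which 3 were among the 12. The gene called higher was SDHD of complex II, which has pseudogene copies and is uncertain, with 35.6 and 27.0 RPKM in TSW and 55.4 and 53.4 RPKM in CO. All 13 mitochondrial mRNAs had log2 differences above 0, against 4364 of the 10100 kept genes, with a median of 0.26 and 1 called. That gene was ATP6, an ATP synthase subunit, with 3030 and 2770 RPKM in MONO, 3170 and 2980 RPKM in TSW, and 4720 and 4850 RPKM in CO (log2 0.64, SE 0.07, limma adjusted p 0.000396), which was not called with quantile normalization (0.42). COX1, a subunit of cytochrome c oxidase, had 4630 and 4870 RPKM in TSW and 6410 and 6700 RPKM in CO, under the fold limit. The mitochondrial tRNA genes that were set aside had a higher sum in CO as well, and the mitochondrial genome has nuclear copies that share reads.

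Several of the largest changes in log2(RPKM + 1) were on genes that share sequence with others, and they are uncertain. The cytosolic ribosomal protein genes moved in both directions, with 5 of 78 called higher, 11 lower and a median of -0.16. Of all kept genes, 1.71% were called higher and 2.07% lower, both smaller shares. RPS27 had 122 and 137 RPKM in MONO, 44.9 and 41.6 RPKM in TSW, and 150 and 154 RPKM in CO (log2 1.79). RPL7 had 117 and 107 RPKM in MONO, 42.9 and 44.4 RPKM in TSW, and 127 and 126 RPKM in CO (log2 1.51), and RPL41 had 155 and 147, 42.0 and 40.7, and 111 and 120 RPKM in the same order (log2 1.46). In these 3 genes TSW alone was low. RPS28 had the opposite pattern, with 36.9 and 34.1 RPKM in MONO, 146 and 157 RPKM in TSW, and 41.7 and 35.8 RPKM in CO (log2 -1.94). NACA2, an intronless copy of NACA (Entrez 342538), had the largest decrease on this scale, with 9.05 and 11.5 RPKM in MONO, 65.8 and 64.3 RPKM in TSW, and 5.73 and 7.26 RPKM in CO (log2 -3.15, SE 0.12, limma adjusted p 1.69e-07). Among the 10 largest decreases on this scale, the ratio of the TSW mean to the CO mean was 10.0 for NACA2. The ratio was larger for GAGE10 (28.6), PTTG2 (18.7), FLJ44635 (17.4) and GAGE12E (10.3), which had lower levels. ATP5MGL, a gene called lower outside these 10, also had a larger ratio than NACA2. NACA, the parent of NACA2, had 95.5 and 95.5 RPKM in TSW and 87.3 and 93.5 RPKM in CO. NACA and H3-3B were chosen after their values were seen. PTTG2, an intronless copy of PTTG1, had 6.18 and 6.20 RPKM in TSW and 0.106 and 0.554 RPKM in CO, and H3-5, a histone gene close to H3-3B, had 23.8 and 26.1 RPKM in TSW and 2.84 and 5.34 RPKM in CO. PTTG1, the parent, had 117 and 136 RPKM in TSW and 119 and 111 RPKM in CO, and H3-3B had 179 and 162 RPKM in TSW and 171 and 171 RPKM in CO. Within RPMI8226 the copies were high in TSW alone, and the parents were near the same level in TSW and CO. In MM.1S, MONO replicate 2 stood apart in the same way, with MONO values of 14.0, 62.0 and 7.93 RPKM for NACA2, 3.57, 19.0 and 5.99 RPKM for H3-5, and 301, 41.0 and 207 RPKM for RPS27. GAGE10, GAGE12E and FLJ44635 had the same pattern as NACA2, with 4.81 to 7.39 RPKM in TSW and under 0.6 RPKM in CO. LOC102724594, a near-identical copy of U2AF1, was called higher, with 0.618 and 0.266 RPKM in TSW and 2.92 and 2.23 RPKM in CO. When genes with near-identical copies were left out before the fit, 120 genes were higher and 150 lower, all of them among the 173 and 209.

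Immunoglobulin lambda segments, which also share sequence, moved against each other. IGLV2-23 (Entrez 28813) had 829 and 991 RPKM in MONO, 5570 and 6440 RPKM in TSW, and 680 and 707 RPKM in CO (log2 -3.11, SE 0.10, limma adjusted p 4.30e-08). IGLV2-11 had 427 and 459 RPKM in TSW and 95.7 and 115 RPKM in CO. IGLV2-14, chosen after its values were seen, had 6350 and 6240 RPKM in MONO, 3560 and 4040 RPKM in TSW, and 5080 and 5490 RPKM in CO (log2 0.48). IGLV2-8 had 137 and 161 RPKM in TSW and 470 and 365 RPKM in CO (log2 1.47), and IGLJ3 had 1.42 and 0 RPKM in TSW and 12.9 and 11.2 RPKM in CO, at least 2.74-fold higher. The constant segments had the same opposition. IGLC2 had 7600 and 8630 RPKM in TSW and 12000 and 11100 RPKM in CO (log2 0.51), while IGLC3 had 2900 and 3350 RPKM in TSW and 1510 and 1780 RPKM in CO (log2 -0.93, SE 0.10, limma adjusted p 0.000227). MONO lay nearer to CO than to TSW in each of these genes except IGLJ3, whose MONO values of 4.22 and 3.55 RPKM lay between the groups and nearer to TSW. Of the largest decreases in log2(RPKM + 1), EDARADD, an adaptor of the ectodysplasin receptor (Entrez 128178), was not tied to a known copy. It had 13.9 and 14.7 RPKM in MONO, 25.4 and 29.0 RPKM in TSW, and 7.39 and 9.30 RPKM in CO (log2 -1.60, SE 0.11, limma adjusted p 1.02e-05). In MONO of MM.1S, EDARADD had 7.03, 12.7 and 4.57 RPKM. Replicate 2 was highest there, as for NACA2 and H3-5, so its value may be uncertain as well.

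Stress responses gave few calls in number, beside 1.71% of all kept genes called higher and 2.07% called lower. The shares called higher among heat shock chaperones (3 of 17) and lower among ATF4 genes (2 of 28) were above these. Of 28 tested genes of the ATF4 response, 2 were lower and 0 higher, with a median of -0.20, and at an unadjusted p under 0.05 there were 10 lower and 1 higher, while voom called 3 lower and 0 higher. TRIB3, a pseudokinase that ATF4 induces, had 19.4 and 22.3 RPKM in MONO, 41.4 and 29.5 RPKM in TSW, and 24.1 and 19.1 RPKM in CO, and was not called without CO replicate 2 (-0.52), without TSW replicate 1 (-0.44) or after the loess correction (-0.54). PHGDH, the first enzyme of serine synthesis, had 5.42 and 5.37 RPKM in MONO, 33.7 and 26.2 RPKM in TSW, and 21.2 and 14.0 RPKM in CO, and was not called without CO replicate 2 (-0.47) or without TSW replicate 1 (-0.58). Both genes fell from TSW to CO with no overlap, and replicate 1 was the higher library within TSW and within CO. ATF4 itself had 260 and 243 RPKM in TSW and 286 and 242 RPKM in CO, with overlap. Of 31 genes of ER folding and secretion, SDF2L1 was called lower (26.8 and 26.9 RPKM in TSW, 15.8 and 18.3 RPKM in CO) and 0 were called higher, and SDF2L1 was not called without CO replicate 1 (-0.53) or after the loess correction (-0.33). At an unadjusted p under 0.05, 11 of the 31 were lower and 4 higher, and voom called 1 lower and 0 higher. HSPA5, the main chaperone of the ER, had 702 and 658 RPKM in TSW and 613 and 578 RPKM in CO (log2 -0.19, limma adjusted p 0.0571). Of 17 heat shock chaperones, HSPA1B, DNAJB4 and HSPE1 were called higher and 0 lower, although the median was -0.17, with 8 lower and 3 higher at an unadjusted p under 0.05 and 3 higher and 0 lower with voom. HSPA1B is nearly identical to HSPA1A and HSPE1 has pseudogenes, so their values are uncertain, and each of the 3 calls was lost without at least 1 library (HSPA1B 0.53 without TSW replicate 1, DNAJB4 0.74 without CO replicate 1 and 0.57 without TSW replicate 2, HSPE1 0.53 without CO replicate 2 and 0.57 without TSW replicate 2), and the loess correction ended those of DNAJB4 (0.39) and HSPE1 (0.57). HSPA8, the constitutive chaperone of the cytosol, had 594 and 670 RPKM in TSW and 474 and 484 RPKM in CO, and missed the fold limit (log2 -0.40, SE 0.07, limma adjusted p 0.00371).

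Signalling lists had few calls in number, and their medians lay near that of all genes. Some shares of genes called, or higher at an unadjusted p under 0.05, were above those of all kept genes. Over all kept genes, 1.71% were called higher and 2.07% lower. NF-kappaB targets had a median of 0.02, with IER3 and BIRC3 called higher and 0 lower among 27 tested. At an unadjusted p under 0.05, 10 of these were higher and 3 lower, and voom called 4 higher and 0 lower. The unadjusted shares were 37.0% higher and 11.1% lower, against 15.8% and 24.4% of all kept genes. ICAM1, an adhesion ligand that NF-kappaB induces, had 194 and 201 RPKM in TSW and 202 and 176 RPKM in CO, with overlap. STAT3 targets had a median of -0.02 (0.07 with quantile normalization) and limma called 0 of 19, with 3 higher and 4 lower at an unadjusted p under 0.05 and 0 called by voom. STAT3 had 58.2 and 59.6 RPKM in TSW and 54.8 and 54.9 RPKM in CO, far above the 17.6 and 17.9 RPKM of MONO. PIM2, a survival kinase downstream of STAT3, had 1130 and 1230 RPKM in TSW and 1060 and 1040 RPKM in CO (log2 -0.16, limma adjusted p 0.0975). IL6R, the receptor of IL6, had 40.1 and 40.0 RPKM in TSW and 31.3 and 30.2 RPKM in CO and missed the fold limit (log2 -0.37, SE 0.07, limma adjusted p 0.00358). The AP-1 family had a median of -0.03 (0.09 after the loess correction) and limma called 0 of 12, with 3 higher and 2 lower at an unadjusted p under 0.05 and 0 called by voom. JUNB had 177 and 191 RPKM in TSW and 181 and 188 RPKM in CO, and these groups overlapped. Notch genes had a median of -0.07 and limma called 0 of 12, with 1 higher and 2 lower at an unadjusted p under 0.05, and voom called 1 lower. The Notch median was 0.02 after the loess correction, and NOTCH2 had 27.2 and 26.6 RPKM in TSW and 25.4 and 27.2 RPKM in CO, with overlap. Of 15 tested TGF-beta and SMAD targets, SKIL was called higher and 0 lower, with a median of 0.05, 12 of them above 0, 6 higher and 2 lower at an unadjusted p under 0.05, and 1 higher and 0 lower with voom. The unadjusted shares were 40.0% higher and 13.3% lower. Of 5 tested YAP and TEAD genes, CCN1 was called higher (0 and 0 RPKM in TSW, 1.52 and 5.75 RPKM in CO) and TEAD4 lower. TEAD4, a partner of YAP in transcription, had 13.6 and 14.8 RPKM in MONO, 6.76 and 7.33 RPKM in TSW, and 3.94 and 3.84 RPKM in CO (log2 -0.72, SE 0.09, limma adjusted p 0.000616), and was not called after the loess correction (-0.55). CCN1 is also a stromal secreted gene, and its CO libraries differed widely.

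Few adhesion and surface genes were called, beside 1.71% of all kept genes called higher and 2.07% called lower. Of 31 tested integrins and adhesion receptors, 1 was called higher and 1 lower, with a median of 0.05 and 20 above 0. At an unadjusted p under 0.05, 12 were higher and 3 lower, and voom called 4 higher and 1 lower. The unadjusted shares were 38.7% higher and 9.68% lower, against 15.8% and 24.4% of all kept genes. The higher gene was CD99 (0.123 and 0.191 RPKM in TSW, 1.58 and 1.44 RPKM in CO, 1.46 and 1.31 RPKM in MONO), which has copies on the sex chromosomes and pseudogenes and is uncertain. The lower gene was ICAM2, a ligand of leukocyte integrins, with 10.5 and 11.5 RPKM in TSW and 6.32 and 7.44 RPKM in CO, which was not called without CO replicate 1 (-0.50), without TSW replicate 2 (-0.55) or after the loess correction (-0.41). ITGB7, an integrin subunit abundant in MM cells, had 587 and 623 RPKM in TSW and 437 and 467 RPKM in CO and missed the fold limit (log2 -0.42, SE 0.07, limma adjusted p 0.00259). Among 34 actin and focal adhesion genes, RND3 alone was called, with a median of -0.02 (0.07 with quantile normalization), and ACTB had 909 and 1020 RPKM in TSW and 1010 and 1010 RPKM in CO. Interferon-stimulated genes had a median of -0.05 (0.02 with quantile normalization), with IFIT2 called higher and IFI27 lower among 30 tested. IFI27 had 6.45 and 4.31 RPKM in TSW and 2.81 and 3.02 RPKM in CO, and was not called without CO replicate 1 (-0.65), CO replicate 2 (-0.72) or TSW replicate 1 (-0.44), or after the loess correction (-0.51). Of 15 genes of MHC class I presentation limma called 0, with a median of 0.11, 5 higher and 4 lower at an unadjusted p under 0.05 and 0 called by voom. SDC1, the plasma cell antigen CD138, had 96.4 and 98.7 RPKM in TSW and 77.6 and 86.6 RPKM in CO (log2 -0.25, SE 0.07, limma adjusted p 0.0300), and TNFRSF17, the gene of BCMA, had 6.40 and 4.43 RPKM in TSW and 4.13 and 3.96 RPKM in CO. MCL1, a survival protein that MM cells need, had 398 and 355 RPKM in TSW and 494 and 493 RPKM in CO and missed the fold limit (log2 0.39, SE 0.08, limma adjusted p 0.00568).

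**Figure D5:**
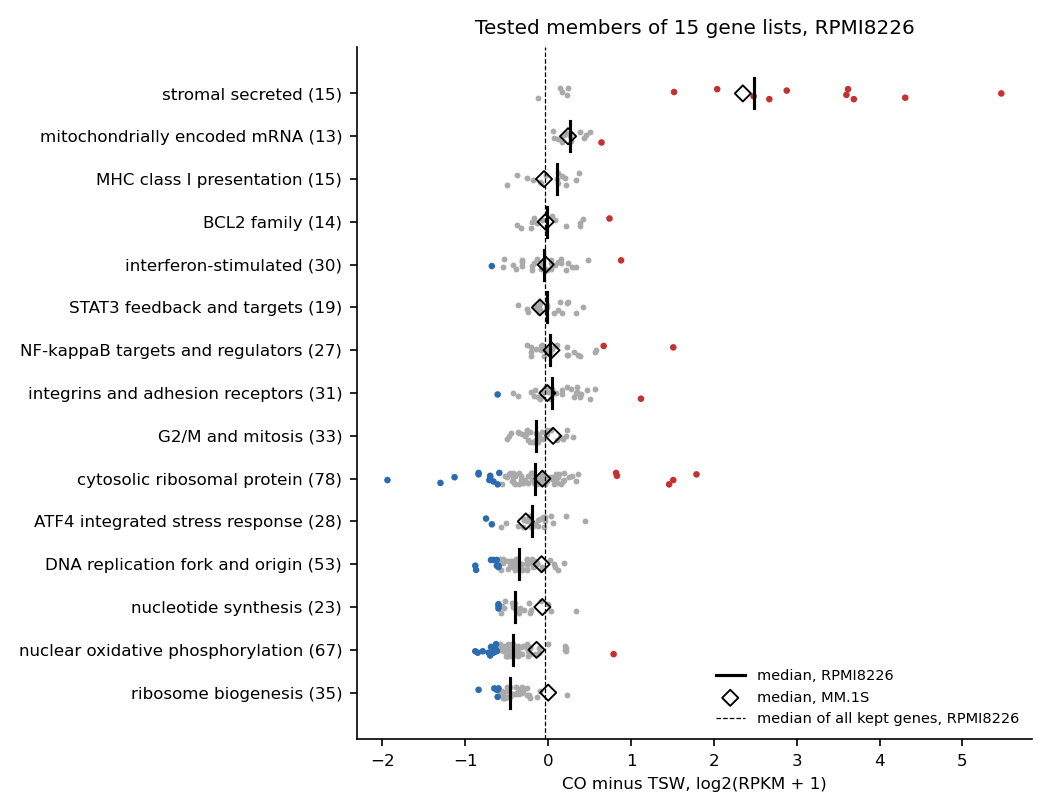
Log2 difference of CO minus TSW for the tested members of 15 gene lists in RPMI8226, with the number tested in parentheses, members called higher in red and lower in blue, and a black bar at each median. Diamonds mark the MM.1S median of the same list, and the dashed line is the median of all kept genes, -0.04. Stromal secreted genes lie farthest to the right (median 2.48) and ribosome biogenesis farthest to the left (median -0.46).

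MM.1S, whose libraries are separate and whose table was normalised separately, gave fewer calls. There, 38 of 10153 tested genes were higher in CO than in TSW (0.374%) and 4 were lower (0.0394%), the latter being CCL3, CCL3L3, CCL4L2 and CDKN1A, named after their values were seen. Without CO replicate 1, TSW replicate 1 or TSW replicate 2 of MM.1S, the count of lower genes was 2. Called higher in both lines were 20 genes, which is 11.6% of the RPMI8226 list and 52.6% of the MM.1S list, and 0 genes were called lower in both or in opposite directions, where CDKN1A alone of the 4 lower genes of MM.1S was tested in RPMI8226. Of these 20 genes, 15 belong to the 29 with under 2 RPKM in MONO and TSW of RPMI8226, among them MMP1, MMP3, TFPI2, COL1A2, COL6A1, COL6A2, GREM1, CSF3 and RND3. The other 5 included CXCL8, MT2A, MME and GBP4. CXCL8 had 0, 0 and 0 RPKM in MM.1S TSW and 25.5, 23.0 and 22.7 RPKM in CO. RND3 had 1.25, 1.41 and 1.09 RPKM in MM.1S TSW and 9.14, 11.2 and 9.95 RPKM in CO (log2 2.30), beside 2.40 in RPMI8226. GBP4 had 4.51, 3.05 and 4.04 RPKM in MM.1S TSW and 7.59, 6.35 and 6.59 RPKM in CO (log2 0.70, limma adjusted p 0.0357). CO and TSW of MM.1S did not overlap for these 3 genes. IL6 had 0, 0.0331 and 0 RPKM in MM.1S TSW and 2.53, 2.96 and 2.39 RPKM in CO, under the expression limit of that line.

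The called genes of RPMI8226 had these medians in MM.1S. The 29 genes with under 2 RPKM had an MM.1S median of 2.53 over the 20 that were tested there, the other higher genes had 0.12 over 127, and the lower genes had -0.18 over 193, against 0.00 over all kept genes of MM.1S. Many of the 20 passed the expression limit of MM.1S through CO alone, so that their median had to be high. The replication list had an MM.1S median of -0.08, ribosome biogenesis 0.00, and nuclear oxidative phosphorylation -0.14. The stromal matrix list had an MM.1S median of 2.22 over 12 tested members, 11 of them called higher, beside 0.56 over 7 members in RPMI8226. Members such as COL1A2, COL6A1 and COL6A2 were at 0 in MONO and TSW of MM.1S. They passed the limit through CO alone and had to be high, so the 2 medians are not comparable. Mitochondrial mRNAs (0.24 beside 0.26 in RPMI8226) and the ATF4 response (-0.27 beside -0.20) had MM.1S medians about as far from 0 as in RPMI8226, or farther. The summed mitochondrial mRNAs of MM.1S overlapped, however, with 46300, 61700 and 60300 RPKM in TSW and 86200, 53100 and 63000 RPKM in CO, so that CO replicate 1 stood apart and CO replicate 2 was below TSW replicates 2 and 3. MCM2 had 115, 102 and 113 RPKM in MM.1S TSW and 91.4, 115 and 93.3 RPKM in CO, and GINS2 had 23.5, 21.3 and 21.8 RPKM in TSW and 17.6, 22.8 and 19.2 RPKM in CO, with overlap in both genes. CDC6 had 23.5, 23.8 and 22.7 RPKM in MM.1S TSW and 18.8, 21.1 and 21.3 RPKM in CO, lower in CO with no overlap, and was not called (log2 -0.19, SE 0.09, limma adjusted p 0.998). NACA2 had 8.74, 7.60 and 8.31 RPKM in MM.1S TSW and 7.02, 6.77 and 7.23 RPKM in CO, and RPS27 had 203, 166 and 171 RPKM in TSW and 149, 201 and 136 RPKM in CO. BMF had 62.7, 62.7 and 60.2 RPKM in MM.1S TSW and 63.5, 59.8 and 58.5 RPKM in CO, with overlap. The difference between the lines was not tested for any gene or list.

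Words of AP-1, RBPJ, TEAD, CRE and NF-Y were also searched in the same windows. The share of promoters found for higher genes was 3.91% for RBPJ, 4.69% for TEAD, 3.12% for CRE and 40.6% for NF-Y, against 5.77%, 10.2%, 3.65% and 38.1% for kept genes, and the share for lower genes was 6.94%, 11.0%, 5.78% and 39.9%. For AP-1, CXCL8 and MT2A are shown as 2 of the genes called higher in both lines whose promoter holds such a word, chosen after the match was seen. The capitals mark TGACTCA, 1 of the words TGACTCA and TGAGTCA, which are reverse complements of each other. Such a word was found in 4.92% of all promoters, in 2.83% of those of kept genes, in 9 of 128 promoters found for higher genes (7.03%) and in 0.578% of those found for lower genes. The windows lie at chr4:73740319-73740618 on the plus strand for CXCL8 and at chr16:56608334-56608633 on the plus strand for MT2A, and the match starts 137 bases before the gene start in CXCL8 and 104 bases before it in MT2A.
CXCL8: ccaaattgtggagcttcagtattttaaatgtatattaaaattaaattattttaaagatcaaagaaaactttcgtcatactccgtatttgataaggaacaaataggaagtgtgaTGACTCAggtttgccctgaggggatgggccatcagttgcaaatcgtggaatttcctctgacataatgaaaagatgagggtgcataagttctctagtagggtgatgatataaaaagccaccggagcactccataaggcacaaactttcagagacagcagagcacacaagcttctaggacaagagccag
MT2A: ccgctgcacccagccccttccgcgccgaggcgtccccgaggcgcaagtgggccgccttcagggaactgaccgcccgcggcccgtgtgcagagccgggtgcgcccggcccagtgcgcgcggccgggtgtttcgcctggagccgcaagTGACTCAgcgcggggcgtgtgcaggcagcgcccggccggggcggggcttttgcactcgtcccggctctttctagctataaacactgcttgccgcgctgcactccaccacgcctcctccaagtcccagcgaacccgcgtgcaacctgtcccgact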

How the data were processed

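RNA-seq libraries of RPMI8226 (6) and MM.1S (9) were read from 1 table of expression values per line. The authors aligned paired reads to hg38 with Subread, counted them on RefSeq genes with featureCounts, computed RPKM, and deposited log2(RPKM + 1) with 0.0001 added to each value. The design had assumed RPKM, and since the tables hold log2 values, RPKM was computed back from them. The number of read pairs in each library was worked out from the steps between its values.

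Genes expressed by HS5 and silent in MM cells, which the authors removed from their analyses, were kept. Groups followed the labels (MONO, TSW, CO). Differences of CO minus TSW were tested with limma 3.58.1 (R 4.3.3) on log2(RPKM + 1), with the 3 conditions of RPMI8226 in 1 fit, genes whose RPKM averaged 1 or more across RPMI8226, a pseudocount of 1, and Benjamini-Hochberg adjustment. A gene was called at an adjusted p under 0.05 and a change over 1.5-fold. Pseudogenes and mitochondrial tRNA genes were set aside after the fit, as planned, since read placement on the pseudogenes differed in the TSW libraries. MM.1S was fitted separately in the same way. Where all TSW libraries had 3 read pairs or fewer, the fold was computed against 3 read pairs per library as a lower bound. The method was also run on simulated data, and the outcome is not given here. Python 3.11.15, numpy 2.4.6, pandas 2.3.3 and matplotlib 3.10.9 served for tables and figures.

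Named genes followed a rule: the 10 largest increases and 10 largest decreases among called genes with no overlap and a mean of at least 2 RPKM in MONO or TSW, the 10 largest increases among the other called genes, in each list the called members and up to 4 members not called with the highest mean RPKM, and CD38 and THY1. Other genes are said to be chosen after their values were seen. Not every gene that the rule names is printed. The members and the lists were chosen with earlier results of these data known.

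Alternatives were other pseudocounts, expression limits, scalings and models, voom on recovered counts, a correction for GC content and length, and each library left out in turn. Leaving out libraries of MM.1S was chosen after seeing the data. With 1 library left in a group, that library is assumed to vary like the other groups.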

Additional observations from a re-analysis of the deposited data

How the results depend on the processing

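Of 98 called genes named in the report, 50 were called in every setting that tested them, and no named gene that was called changed direction. Of 1886 values of 130 named genes under the alternatives, 1724 kept their direction and their side of the threshold, 153 were no longer called and 9 became called. The loess correction for GC content and length ended 31 of the 98 calls, and no expression filter ended 34. Among the scalings, quantile normalization ended 22 calls and median-of-ratios scaling 13.

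The 173 genes higher in CO became 102 when no expression limit was set, 268 when 0.1 was added to RPKM before taking logs, 298 with voom and 1002 with no fold change threshold. With each library left out in turn they were 115 to 357. The 209 lower genes became 112 with no expression filter, 139 with median-of-ratios scaling, 137 with quantile normalization, 82 after the loess correction and 1752 with no fold change threshold, and 151 to 300 with libraries left out. The 4 lower genes of MM.1S became 2 to 4 with libraries left out, and the 38 higher genes 30 to 36. Those omissions in MM.1S were chosen after seeing the data.

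The median of the stromal matrix list (0.56) was 0.91 with a pseudocount of 0.1, 0.19 with a mean RPKM of at least 5 and 0.98 with voom, and that of the stromal secreted list (2.48) was 4.95, 0.24 and 7.22. Nucleotide synthesis (-0.40) was -0.36 with median-of-ratios scaling, -0.32 with quantile normalization, -0.36 after the loess correction and -0.53 without genes with near-identical copies. Nuclear oxidative phosphorylation (-0.43) was -0.31 with quantile normalization and -0.29 after the loess correction. The cause was not tested. Cytosolic ribosomal proteins had no member left without genes with near-identical copies, so that setting gave no value.

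A replicate block gave 174 higher and 210 lower genes. With 2 libraries per condition, the labels show only that samples share a number, and whether numbers mark shared wells was not stated: deviations of the libraries from their condition means had correlations across genes of 0.17 between TSW and CO, 0.271 between MONO and TSW, and 0.164 between MONO and CO. Depth limits genes near the floor, where 3 read pairs in TSW were 0.0814 RPKM for MMP1 and 0.0422 RPKM for IL6.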
